A study of Mus musculus with 7 samples.

Results

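Pde4d encodes phosphodiesterase 4D, an enzyme that hydrolyses cyclic AMP (cAMP). Its locus on mouse chromosome 13 was described here in β cells with and without the chromatin remodellers CHD3 and CHD4. Accessibility was measured by ATAC-seq, in which the Tn5 transposase inserts adapters where DNA is open. The members are the 44 regions, of 61288 listed regions, that the deposited table assigns to Pde4d by nearest transcription start site. They were chosen by gene symbol, and the gene itself was selected on the accessibility differences between these same libraries. Every listed region is also in the table because its FDR in the authors' comparison was under 0.05. The differences below are therefore a description of the locus, and no p-value is given for them.

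The libraries comprised 3 from Chd3/4Δβ mice (Chd3-4Db in the labels; Chd3 fl/fl; Chd4 fl/fl) and 4 from Control mice with wild-type Chd3 and Chd4. All mice were male, carried the MIP-CreERT transgene and the R26 LSL-tdTomato reporter, and received tamoxifen by gavage from 4 weeks of age, so the Control libraries share the Cre driver, its inducer and the reporter. MIP-CreERT is driven by the mouse Ins1 promoter, which directs recombination to β cells, and Tomato-positive cells were sorted from dispersed islets before nuclei were tagmented. The labels do not state whether replicates were separate animals or pools, so the spread between libraries may be in part technical. Mice of both genotypes were described in the study as 10 weeks of age, which was not stated separately for these libraries. Accessibility is given as CPM, the reads of a region scaled by library size. The library sizes behind these values were 17.8 to 44.03 M in Chd3/4Δβ and 17.6 to 42.4 M in Control. Column names give Control replicates 1 to 3 one lane tag, Chd3/4Δβ replicate 3 a different one and the other libraries none, and the part of sequencing runs in the values was not tested. No listed region carries the symbol Chd3 or Chd4, so the deletion was not checked here. The 48 listed regions of 10 β-cell marker genes summed to 490 to 838 CPM in Chd3/4Δβ and 1026 to 1253 CPM in Control, and Ins1, Ins2, Iapp and Mafa all had listed regions. The 8 listed regions of 4 α-cell markers summed to 43.2 to 53.4 CPM in Chd3/4Δβ and 17.02 to 21.4 CPM in Control. Marker sums were also higher in every Chd3/4Δβ library than in every Control library for δ cells (4.05 to 8.21 CPM in Chd3/4Δβ, 2.00 to 3.49 CPM in Control), acinar cells (16.5 to 20.9 CPM in Chd3/4Δβ, 7.16 to 8.67 CPM in Control), endothelial cells (60.8 to 88.9 CPM in Chd3/4Δβ, 45.7 to 48.8 CPM in Control) and immune cells (7.71 to 10.6 CPM in Chd3/4Δβ, 4.45 to 6.53 CPM in Control). Of these lists, Hhex, Cpa1, Ptf1a, Prss2, Cd68 and Adgre1 had no listed region. Sums for 3 ductal markers overlapped (76.1 to 119 CPM in Chd3/4Δβ, 74.9 to 83.9 CPM in Control). The part of other cells in the values below was not tested, and in sorted cells in bulk a change in the share of cells cannot be told apart from a change per cell.

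In β cells, cAMP is made by adenylyl cyclases downstream of the GLP-1 and GIP receptors and raises glucose-stimulated insulin secretion through protein kinase A (PKA) and the EPAC exchange factors. Phosphodiesterases of several families end the signal, and PDE4 enzymes are specific for cAMP. PDE4D is produced as long and short isoforms from many alternative promoters spread over a very long gene, and the N-terminal parts that differ between isoforms direct the enzyme to different places in the cell. For this reason the map of open regions was read against the annotated start sites.

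RefSeq places Pde4d at chr13:108654177-109955969 (GRCm38.p6), on the forward strand, a length of 1302 kb. Positions below are distances in kb of a region's centre from this start. The labels name GRCm39, but the deposited coordinates were read as GRCm38, because 3360 of 4494 promoter regions (74.8%) were centred within 2000 bases of a GRCm38.p6 RefSeq start of the same symbol. The 44 regions ran from chr13:108449265 to chr13:110076198, a span of 1627 kb of which the regions cover 37.2 kb. Of these regions, 36 lay inside the RefSeq gene, 1 lay 205 kb before it and 7 lay beyond its end, the last 2 of them within the neighbouring gene Rab3c. Introns held 35 regions, intergenic sequence 5, promoters 2 and exons 2. Median width was 753 bases (310 to 2228), against 763 bases over all listed regions. Pde4d had the largest number of listed regions of the 24453 symbols in the table, for which the median was 2.

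Promoter sequence is printed from RefSeq for the start sites that bear on the map, in the orientation of the transcript, with E-boxes (CANNTG), the CRE core TGACG and GC boxes (GGGCGG) of either strand in capitals. The annotated RefSeq start of Pde4d is shown because no listed region overlapped it (chr13:108653927-108654226, forward strand), and the nearest listed region was centred 159 kb away. Gm32703, a non-coding gene on the opposite strand inside Pde4d, is shown because a promoter of it (chr13:109440962-109441261, reverse strand) lay within the region at 786 kb, among the most open of the locus in both genotypes.
Pde4d RefSeq promoter: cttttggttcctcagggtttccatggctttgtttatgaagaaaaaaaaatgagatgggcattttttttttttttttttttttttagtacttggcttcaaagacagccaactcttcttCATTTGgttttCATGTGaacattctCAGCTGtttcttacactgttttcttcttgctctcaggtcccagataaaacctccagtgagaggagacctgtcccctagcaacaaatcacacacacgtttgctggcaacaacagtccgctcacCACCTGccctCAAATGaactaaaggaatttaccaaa
Gm32703 promoter: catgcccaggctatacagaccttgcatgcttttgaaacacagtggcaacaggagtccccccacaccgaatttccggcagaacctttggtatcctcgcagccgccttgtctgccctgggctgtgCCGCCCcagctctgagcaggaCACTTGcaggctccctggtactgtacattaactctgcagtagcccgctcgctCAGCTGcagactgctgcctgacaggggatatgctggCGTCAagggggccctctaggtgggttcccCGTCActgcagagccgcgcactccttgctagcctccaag
The Pde4d window held 5 E-boxes and no CRE core, GC box or homeobox core TAAT. The Gm32703 window held 2 E-boxes, 2 CRE cores, 1 GC box and 1 TAAT. The full CRE, TGACGTCA, was in neither. Among 32544 RefSeq promoter windows of this length, 72.3% held an E-box, 57.9% a TAAT, 35.9% a GC box, 20.9% a CRE core and 1.80% the full CRE. GC content was 39.7% in the Pde4d window and 60.3% in the Gm32703 window, against a median of 53% over all windows. Such matches describe the letters only.

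Most listed regions of Pde4d were more accessible in Chd3/4Δβ, but for many of them the direction was set by how the table was made. By edgeR's quasi-likelihood fit over all listed regions, 25 of the 44 (56.8%) were higher at an adjusted p under 0.05 and a log2 fold change of at least 1, and 5 (11.4%) were lower. Over all listed regions 37% were higher and 20.4% were lower by the same rule. All regions in the table exceed 1 CPM in 3 or more libraries, and 17 of the 25 higher members met this in the 3 Chd3/4Δβ libraries and in no Control library, so that they could be listed only as gains. Without these 17 the tally was 8 higher and 5 lower of 27, and over the 47198 listed regions with a Control mean of at least 1 CPM 19.7% were higher and 26.5% were lower. Likewise 2 of the 5 lower members, at 1210 and 1329 kb, had no Chd3/4Δβ library above 1 CPM. The counts over all listed regions depend on the scaling, since TMM gave 19374 higher and 17070 lower of all listed regions, RLE 17972 and 19441, and cyclic loess 14012 and 15692, against 22692 and 12512 in the fit used here. The median log2 fold change was 1.28 over the 44 regions and 0.56 over all listed regions, and 36 of the 44 had a positive value. In the locus itself there were 23 higher and 7 lower regions by TMM, 21 and 7 by RLE and 15 and 6 by cyclic loess. These tallies include the members that could be listed only as gains, so nothing is read from the lead of gains. Outside those 17, TMM lost the gain at 998 kb and RLE lost those at 493, 998 and 1039 kb. Both scalings added losses at 837 and 962 kb. In 33 of the 44 regions every Chd3/4Δβ library lay above every Control library, and in 4 every Chd3/4Δβ library lay below. These shares were 49.3% and 38.8% over all listed regions. All 25 higher regions were separated in this way, but for 17 of them the listing minimum fixed the separation. Those 17 are also among the 33. Of the 5 lower regions, 2 were separated.

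**Figure D1:**
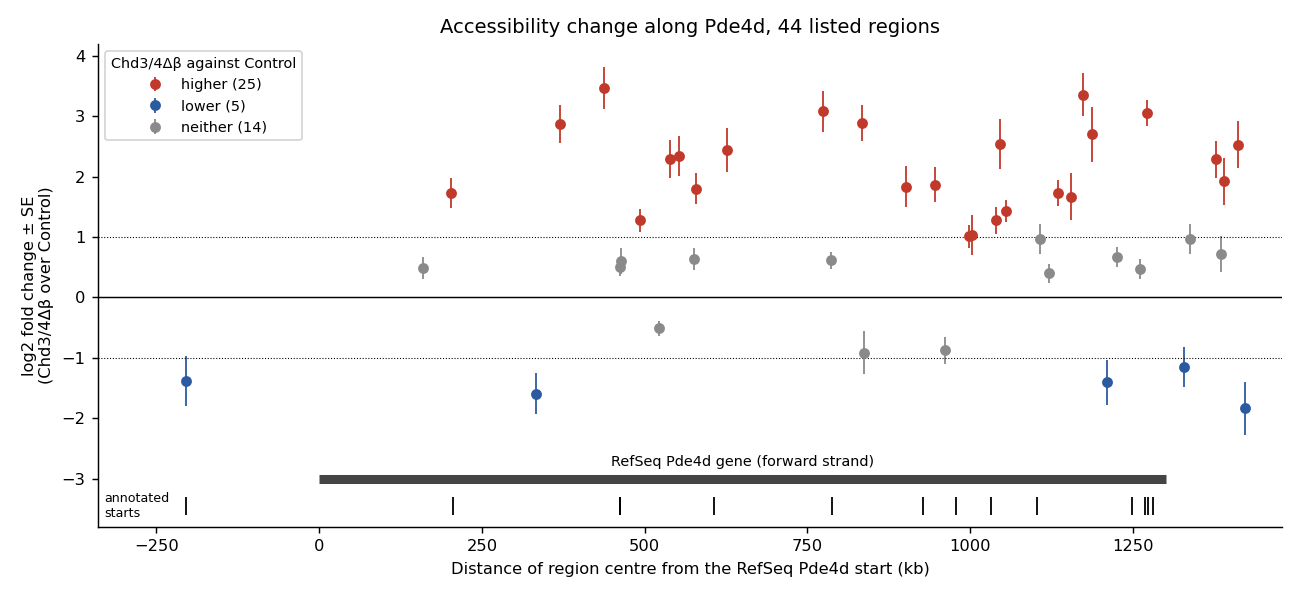
Log2 fold change of Chd3/4Δβ over Control (points, ± SE) for the 44 regions. The horizontal axis is the distance in kb of each region's centre from the RefSeq Pde4d start. Red, blue and grey mark higher, lower and neither, and the bar is the RefSeq gene. Ticks are the 14 annotated starts that are assigned to a member as its nearest. The 25 higher regions are spread from 203 to 1411 kb, and the 5 lower ones lie singly between them and at both ends.

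Gains were spread from 203 kb onward and did not form a single run. Before that point the gene held 1 listed region, at 159 kb, which was not called. Read from left to right, the 44 regions fell into 28 runs of the same call. The longest run of gains held 5 regions in 58.0 kb, from 998 to 1055 kb, and the next held 4 regions in 52.6 kb, from 1135 to 1187 kb. Of 43 pairs of adjacent members, 13 were higher in both and none was lower in both. The members at 627 and 774 kb count as such a pair, although the 5 listed regions assigned to Mir582 lie between them. Since 17 of the 25 gains could be listed only as gains, nothing is read from these counts of runs and pairs. The windows of 250 kb from the start held 1 of 2, 3 of 6, 4 of 6, 5 of 8 and 8 of 12 regions that were higher, in that order, and 4 of 9 were higher beyond 1250 kb. The median gap between regions was 20.3 kb, and the widest, 363 kb, lay between the first region and the second and held the RefSeq start.

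The most prominent change at a start site was at an internal promoter close to the end of the gene. The region at 1272 kb (chr13:109926020-109927023) was centred 323 bases before the start of transcript ENSMUST00000117420, which is 29.1 kb from the RefSeq gene end. Its accessibility was 13.2, 10.1 and 10.2 CPM in Chd3/4Δβ, against 1.42, 1.14, 1.43 and 1.37 CPM in Control. The Control libraries were low and close together, and every Chd3/4Δβ library was far above them, a log2 fold change of 3.06 ± 0.21 (SE). This region was the only promoter that gained, and it was the most open of the 6 largest gains in both genotypes.

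The other promoter of the locus changed in the opposite direction. Among the starts assigned to a member, that of ENSMUST00000133929 was the farthest from the gene end. The region at -205 kb (chr13:108449265-108449986) was centred 323 bases before this start. It had 0.409, 0.513 and 1.18 CPM in Chd3/4Δβ, against 0.681, 2.06, 1.53 and 2.26 CPM in Control. Chd3/4Δβ replicate 3 lay above Control replicate 1, so the groups overlapped, and the log2 fold change was -1.39 ± 0.41. Without Chd3/4Δβ replicate 2 it was -1.20 and the region was no longer called.

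Between these ends, the most open regions at or near a start site did not pass the fold threshold. The region at 463 kb (chr13:109115971-109117752) covered exon 1 of ENSMUST00000120671, with its centre 220 bases past the start. It had 25.9, 28.8 and 28.2 CPM in Chd3/4Δβ, against 15.9, 16.7, 18.2 and 26.4 CPM in Control, where replicate 4 reached the level of the Chd3/4Δβ libraries. The log2 fold change was 0.51 ± 0.15, which did not pass the fold threshold. The region at 786 kb (chr13:109439376-109441603), which holds the Gm32703 promoter printed above, was centred 1694 bases before the start of ENSMUST00000119507. It had 29.8, 29.8 and 29.9 CPM in Chd3/4Δβ, against 18.6, 20.1, 15.1 and 23.9 CPM in Control. The Chd3/4Δβ libraries were nearly equal and all higher, by a log2 fold change of 0.61 ± 0.14.

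The 14 annotated starts considered are those assigned to a member as its nearest, so starts without a member are not counted. The RefSeq start of Pde4d is not among them. By position, 4 of the 14 had the centre of a member within 1000 bases, and 8 had one within 5000 bases. The start of ENSMUST00000129374 lay inside the region at 463 kb, 625 bases from its centre. The region at 1272 kb was also the nearest to the starts of ENSMUST00000151429, at 3610 bases, and ENSMUST00000155459, at 8791 bases. The start of ENSMUST00000177907 had its nearest region 3100 bases upstream, at 203 kb (chr13:108856667-108857465), with 3.45, 4.23 and 5.29 CPM in Chd3/4Δβ, against 1.19, 1.36, 1.20 and 1.37 CPM in Control. This region was higher in every Chd3/4Δβ library (1.73 ± 0.25 on the log2 scale). The start of ENSMUST00000152630 had its nearest region 4136 bases downstream, in exon 3 at 1107 kb (chr13:109760966-109761749). It had 4.66, 3.08 and 5.91 CPM in Chd3/4Δβ, against 2.27, 2.22, 2.39 and 2.29 CPM in Control. The groups did not overlap there, but the log2 fold change of 0.97 ± 0.24 fell just short of the threshold.

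For the remaining 5 starts the nearest member lay farther away, at 7484 to 20183 bases. Near ENSMUST00000134973, the region at 1039 kb had 6.25, 6.13 and 4.73 CPM in Chd3/4Δβ, against 1.76, 2.50, 2.39 and 2.71 CPM in Control (1.28 ± 0.22 on the log2 scale). Near ENSMUST00000119672, the region at 1262 kb had 14.2, 13.7 and 16.8 CPM in Chd3/4Δβ, against 8.74, 11.9, 11.4 and 10.7 CPM in Control (0.47 ± 0.16). Both were thus moderately open in each genotype, and of the pair only the one at 1039 kb was called, a call that was lost by RLE (0.96). The regions at 627 kb (1.60 ± 0.0559 CPM in Chd3/4Δβ and 0.285 ± 0.169 CPM in Control, SD, n = 3 and 4) and 946 kb (2.72 ± 0.236 CPM in Chd3/4Δβ and 0.728 ± 0.168 CPM in Control) were nearest the starts of ENSMUST00000153234 and ENSMUST00000079975. Both were little open in Control and were higher, with log2 fold changes of 2.45 ± 0.36 and 1.87 ± 0.29, but by cyclic loess that at 627 kb was 0.33 and was not called.

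**Figure D2:**
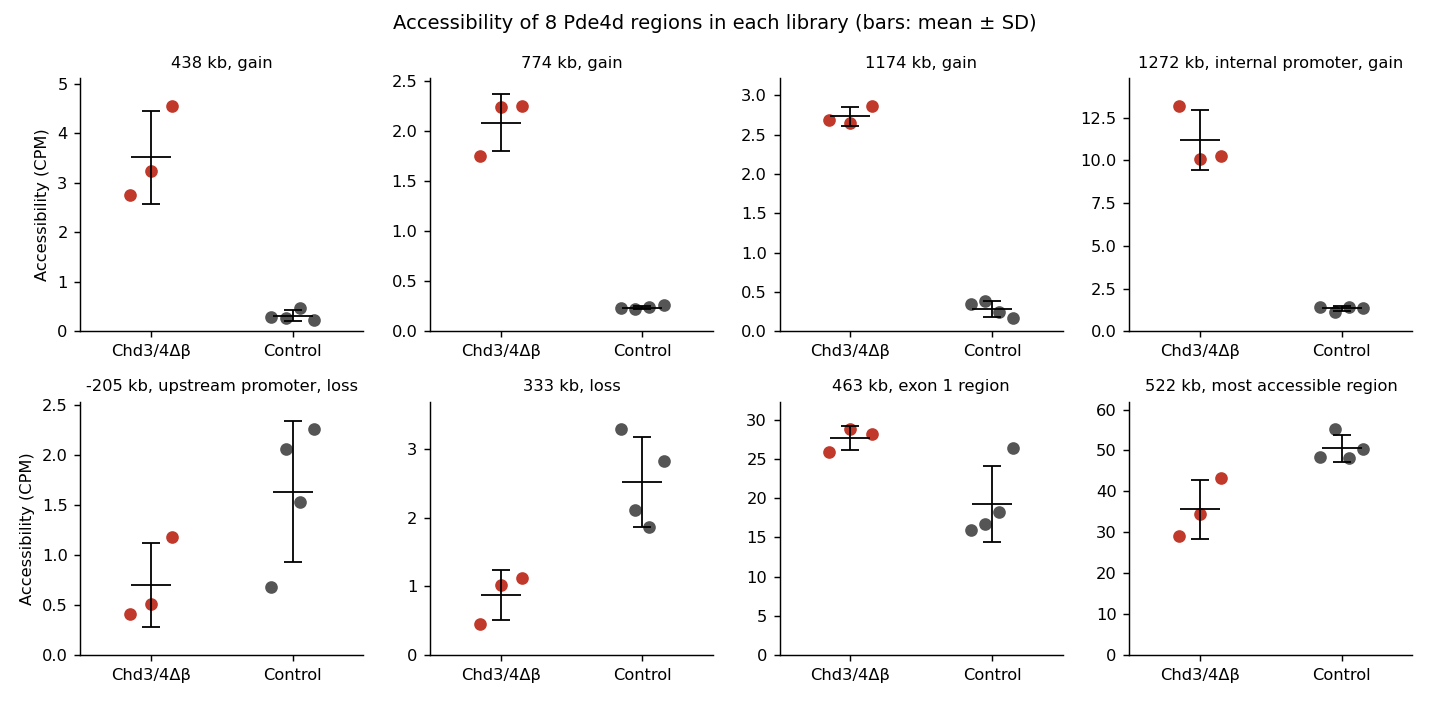
Accessibility in CPM of 8 Pde4d regions, with a point for each library (Chd3/4Δβ left, n = 3; Control right, n = 4) and bars for mean ± SD; each panel has its own axis from 0. At 438, 774, 1174 and 1272 kb the groups are wide apart, but at 438, 774 and 1174 kb the listing minimum fixed the separation. At -205 and 463 kb the groups overlap, and at 522 kb every Chd3/4Δβ library lies below Control in a region that stays open.

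The other large gains were at intronic sites that were almost closed in Control. The largest was at 438 kb (chr13:109091509-109092061), in intron 2 of ENSMUST00000177907. It had 2.75, 3.23 and 4.56 CPM in Chd3/4Δβ, against 0.284, 0.271, 0.478 and 0.236 CPM in Control, a log2 fold change of 3.47 ± 0.34. The Control values rest on 5 to 10 reads a library. At 1174 kb (chr13:109827951-109828316) there were 2.68, 2.64 and 2.87 CPM in Chd3/4Δβ, against 0.340, 0.380, 0.239 and 0.165 CPM in Control (3.36 ± 0.35).

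At 774 kb (chr13:109428163-109428714) there were 1.75, 2.23 and 2.25 CPM in Chd3/4Δβ, against 0.227, 0.217, 0.239 and 0.259 CPM in Control (3.08 ± 0.34). At 833 kb (chr13:109487343-109487790) there were 4.27, 3.80 and 2.98 CPM in Chd3/4Δβ, against 0.624, 0.434, 0.383 and 0.542 CPM in Control (2.89 ± 0.30). At 371 kb (chr13:109024684-109025257) there were 3.36, 2.93 and 3.09 CPM in Chd3/4Δβ, against 0.397, 0.543, 0.478 and 0.330 CPM in Control (2.87 ± 0.31). In each of these 5 regions the lowest Chd3/4Δβ library was well above the highest Control library, though the listing minimum fixed their separation. By cyclic loess the region at 774 kb had a log2 fold change of 0.93 and was not called.

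At 1187 kb (chr13:109841175-109841680) the size of the gain depended on a single library. It had 2.11, 2.75 and 3.04 CPM in Chd3/4Δβ, against 0.0567, 0.217, 0.143 and 0.872 CPM in Control, so that Control replicate 4 stood above the other 3. The log2 fold change was 2.70 ± 0.46, and it was 4.17 without Control replicate 4, with the call kept. The remaining 18 higher regions had log2 fold changes between 1.01 and 2.54 and Control means between 0.213 and 5.26 CPM. The largest of these, at 1046 kb, was -0.05 by cyclic loess and was not called.

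Members differed widely in their level in Control. All 17 members with a Control mean under 1 CPM were higher, as were 13414 of 14090 such regions in the whole table. Of 18 members between 1 and 5 CPM, 7 were higher, 5 were lower and 6 were neither. Of 9 members over 5 CPM, only that at 1055 kb was higher, with 14.3 ± 2.35 CPM in Chd3/4Δβ and 5.26 ± 0.943 CPM in Control (SD, n = 3 and 4). Nothing is read from the count under 1 CPM, which the listing minimum fixed in direction.

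**Figure D3:**
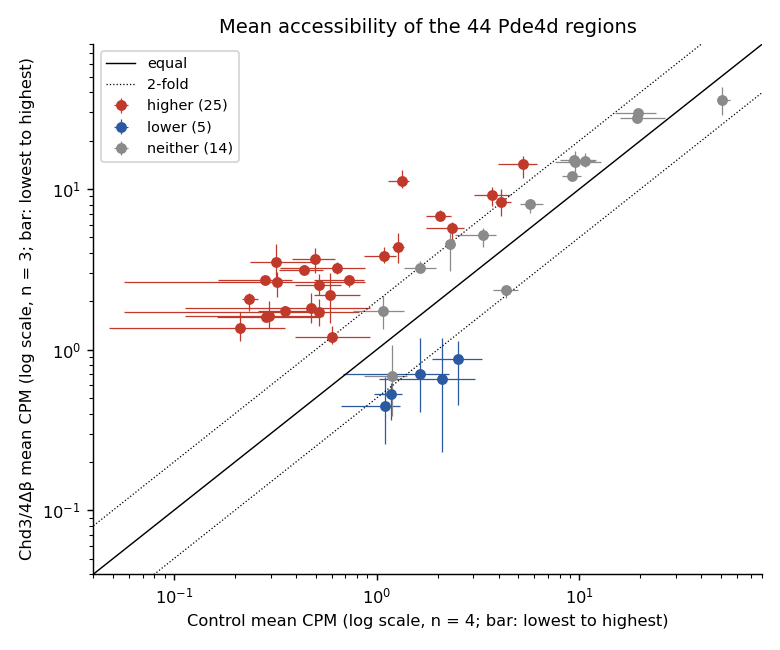
Mean accessibility of the 44 regions in Chd3/4Δβ (vertical, n = 3) and Control (horizontal, n = 4) in CPM on log scales, with bars from the lowest to the highest library, the line of equal levels and dotted lines at 2-fold. The 17 regions under 1 CPM in Control all lie above the line of equal levels, which the listing minimum fixed. The most open regions lie near the line of equal levels.

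The most accessible member in both genotypes was at 522 kb (chr13:109175799-109176791), in intron 1 of ENSMUST00000120671. It had 29.1, 34.4 and 43.3 CPM in Chd3/4Δβ, against 48.4, 55.2, 48.2 and 50.4 CPM in Control. Every Chd3/4Δβ library was lower, but the log2 fold change of -0.51 ± 0.12 was under the threshold. The regions at 786 and 463 kb followed in each genotype, at 29.8 ± 0.0800 and 27.6 ± 1.53 CPM in Chd3/4Δβ and at 19.4 ± 3.67 and 19.3 ± 4.82 CPM in Control. Within Control, the regions at 786 and 463 kb did not differ from each other beyond their spread. In each genotype no other member had a mean above 15.1 CPM.

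The 5 losses lay apart from each other, at sites of low to moderate accessibility. At 333 kb (chr13:108986436-108987551), in intron 1 of ENSMUST00000177907, there were 0.454, 1.03 and 1.13 CPM in Chd3/4Δβ, against 3.29, 2.12, 1.86 and 2.83 CPM in Control (-1.60 ± 0.34). Every Chd3/4Δβ library was lower, and the next member, 37.1 kb away, was the gain at 371 kb. At 1422 kb (chr13:110075560-110076198), inside Rab3c, there were 0.545, 0.231 and 1.18 CPM in Chd3/4Δβ, against 1.02, 3.04, 2.06 and 2.24 CPM in Control (-1.84 ± 0.43). The member 10.0 kb before it, at 1411 kb, was higher, with 1.63 ± 0.333 CPM in Chd3/4Δβ and 0.295 ± 0.189 CPM in Control (2.53 ± 0.39), but by cyclic loess it was 0.34 and was not called.

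At 1210 kb (chr13:109864338-109864808) there were 0.409, 0.257 and 0.675 CPM in Chd3/4Δβ, against 1.19, 1.30, 0.669 and 1.23 CPM in Control (-1.41 ± 0.37), and the groups overlapped through Chd3/4Δβ replicate 3 and Control replicate 3. At 1329 kb (chr13:109983034-109983400), beyond the gene end, there were 0.363, 0.616 and 0.619 CPM in Chd3/4Δβ, against 1.19, 1.19, 1.34 and 0.966 CPM in Control (-1.16 ± 0.33). The groups did not overlap at 1329 kb, but without Chd3/4Δβ replicate 1 its log2 fold change was -0.90 and with a depth term -0.99, and in both cases it was not called. Among the Chd3/4Δβ libraries replicate 3 was the highest in all 5 losses.

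Just inside the threshold for a gain were the regions at 998 kb (1.01 ± 0.19; 8.29 ± 1.60 CPM in Chd3/4Δβ and 4.11 ± 0.330 CPM in Control) and 1004 kb (1.04 ± 0.33; 1.20 ± 0.179 CPM in Chd3/4Δβ and 0.603 ± 0.233 CPM in Control). Each lost its call when Chd3/4Δβ replicate 1 was left out (0.85 and 0.89), that at 998 kb also without Control replicate 2 or 3 (0.99 and 1.00) and that at 1004 kb also without Control replicate 1 or 4 (0.92 and 0.90). Neither was called by TMM, RLE, cyclic loess or with the replicate block. Just outside lay those at 1107 kb, given above, and 1338 kb (0.97 ± 0.25; 3.22 ± 0.277 CPM in Chd3/4Δβ and 1.64 ± 0.248 CPM in Control). The region at 1107 kb was called higher with the depth term (1.07) and without Chd3/4Δβ replicate 2 (1.19), and that at 1338 kb without Chd3/4Δβ replicate 1 or 3 (1.01 each) or Control replicate 3 (1.07). On the side of losses, the regions at 837 kb (-0.91 ± 0.36; 0.682 ± 0.351 CPM in Chd3/4Δβ and 1.18 ± 0.234 CPM in Control) and 962 kb (-0.88 ± 0.22; 2.35 ± 0.227 CPM in Chd3/4Δβ and 4.32 ± 0.512 CPM in Control) fell short, and both were called lower by TMM (-1.13 and -1.09) and RLE (-1.23 and -1.19). By cyclic loess (-2.02), without Chd3/4Δβ replicate 3 (-1.28) or without Control replicate 3 (-1.03), that at 837 kb was also called. The region at 837 kb lay 2.53 kb from the large gain at 833 kb. The 962 kb region was lower in every Chd3/4Δβ library and was the nearest member to the start of ENSMUST00000135275.

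Summed over the locus, the 44 regions held 282 ± 11.3 CPM in Chd3/4Δβ (SD, n = 3) and 185 ± 15.4 CPM in Control (n = 4). The 25 higher regions contributed 103 ± 2.10 CPM in Chd3/4Δβ and 28.5 ± 2.74 CPM in Control. The 5 lower regions contributed 3.20 ± 1.39 CPM in Chd3/4Δβ and 8.52 ± 1.27 CPM in Control. Both sets were picked by their calls in these same libraries, so the direction of both sums was set in advance. Of the 25, 17 could be listed only as gains, and the locus total includes them. The 14 others held most of the signal, 176 ± 9.43 CPM in Chd3/4Δβ and 148 ± 12.2 CPM in Control.

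Between the members lay 5 listed regions that the table assigns to Mir582, a microRNA gene inside Pde4d at 671 kb, and that are therefore intronic to Pde4d by position. The mature miR-582 sequences (chr13:109324753-109324774 and chr13:109324790-109324810, forward strand, RefSeq) are shown because this gene divides the map, with the seed in capitals.
mmu-miR-582-5p: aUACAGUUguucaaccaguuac
mmu-miR-582-3p: uAACCUGUugaacaacugaac
The region centred 24341 bases past the Mir582 start (chr13:109348755-109349415) had 7.34, 9.16 and 8.38 CPM in Chd3/4Δβ, against 3.29, 2.33, 2.96 and 3.04 CPM in Control, and was higher (1.51 ± 0.20). The region centred 31700 bases past it (chr13:109356222-109356666) had 0.591, 0.616 and 0.788 CPM in Chd3/4Δβ, against 2.67, 1.90, 1.24 and 1.18 CPM in Control, and was lower (-1.39 ± 0.35). The other 3 were not called, and the most open of them (chr13:109312348-109313252) had 24.4 ± 5.59 CPM in Chd3/4Δβ and 14.4 ± 0.725 CPM in Control. Expression of the microRNA was not measured by this assay. Counting all regions centred inside the RefSeq gene, whatever their symbol, gave 23 higher and 3 lower of 41.

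Neighbouring genes changed in both directions. Within 500 kb before the first member, 3 of 16 listed regions were higher and 7 were lower, and within 500 kb after the last member 8 of 19 were higher and 4 were lower. Rab3c, which encodes a small GTPase of secretory vesicles and follows Pde4d, had the largest of these gains (chr13:110153643-110154207), with 5.20, 5.98 and 5.23 CPM in Chd3/4Δβ, against 0.284, 0.217, 0.574 and 0.283 CPM in Control (4.01 ± 0.31). No Control library exceeded 1 CPM in that region, so the listing minimum fixed its direction. Of the 7 regions assigned to Rab3c past the last member, 2 were higher and 3 were lower.

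Among the PDE4 paralogs, which hydrolyse the same substrate, Pde4b had 20 listed regions, of which 12 were higher and 3 were lower, with log2 fold changes from -1.63 to 3.26. Pde4a had 5, of which 2 were higher and none was lower (-0.36 to 3.54), and Pde4c had none. In both paralogs an annotated promoter was among the gains, and these are shown beside the RefSeq start of Pde4d, where no region is listed, with the same motifs in capitals (Pde4b, chr4:102587308-102587607; Pde4a, chr9:21165464-21165763; both forward strand, GRCm38.p6).
Pde4b promoter: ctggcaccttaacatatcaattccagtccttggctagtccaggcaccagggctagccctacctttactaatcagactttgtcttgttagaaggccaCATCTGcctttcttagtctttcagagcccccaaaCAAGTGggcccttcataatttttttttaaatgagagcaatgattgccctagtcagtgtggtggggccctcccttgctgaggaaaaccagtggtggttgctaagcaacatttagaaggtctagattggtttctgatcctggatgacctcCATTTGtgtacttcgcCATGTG
Pde4a promoter: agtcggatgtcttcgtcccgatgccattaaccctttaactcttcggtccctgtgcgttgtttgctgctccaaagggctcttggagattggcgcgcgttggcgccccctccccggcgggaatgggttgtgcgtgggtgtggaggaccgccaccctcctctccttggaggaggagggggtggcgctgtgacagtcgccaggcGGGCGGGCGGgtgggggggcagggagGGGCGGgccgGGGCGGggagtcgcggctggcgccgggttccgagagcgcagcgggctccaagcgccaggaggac
The Pde4b window held 4 E-boxes, 2 TAAT and no GC box (GC content 46.7%), and the Pde4a window held 4 GC boxes, 1 TAAT and no E-box (GC content 70%). Neither held a CRE core. The Pde4b promoter region (chr4:102587343-102587676) had 3.84, 3.46 and 3.15 CPM in Chd3/4Δβ, against 0.964, 0.760, 1.10 and 0.825 CPM in Control (1.94 ± 0.27). The Pde4a promoter region (chr9:21164985-21166361) had 22.6, 17.3 and 11.9 CPM in Chd3/4Δβ, against 4.76, 3.80, 3.78 and 4.45 CPM in Control (2.04 ± 0.20). The groups were wide apart at both. The Pde4a region also holds the start of Gm36118 on the opposite strand, and ATAC-seq cannot assign openness to either gene. A second Pde4a start (chr9:21183719-21184691) had 16.8 ± 0.843 CPM in Chd3/4Δβ and 21.6 ± 2.08 CPM in Control and was not called (-0.36 ± 0.14).

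Over a list of 66 other genes of cAMP signalling, 57 had listed regions. Of their 311 regions, 109 (35.0%) were higher and 59 (18.97%) were lower, near the shares over all listed regions, and by cyclic loess 72 were higher and 77 lower. TMM gave 96 and 83, and RLE 88 and 97, so the balance of this list depends on the scaling. Adenylyl cyclases, which make cAMP, had 14 of 26 regions higher and 2 lower. The EPAC genes had 11 of 20 higher and 2 lower, of which Rapgef4 (EPAC2) had 18 regions with 10 higher. PKA subunits and inhibitors had 9 of 33 higher and 11 lower, receptors and G proteins 5 of 28 higher and 2 lower, and CREB factors 5 of 24 higher and 6 lower. Other cAMP phosphodiesterases had 31 of 96 higher and 22 lower, and anchors and partners of PDE4D 20 of 59 higher and 11 lower. Counts for every role include regions under 1 CPM in Control, which could be listed almost only as gains.

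**Figure D4:**
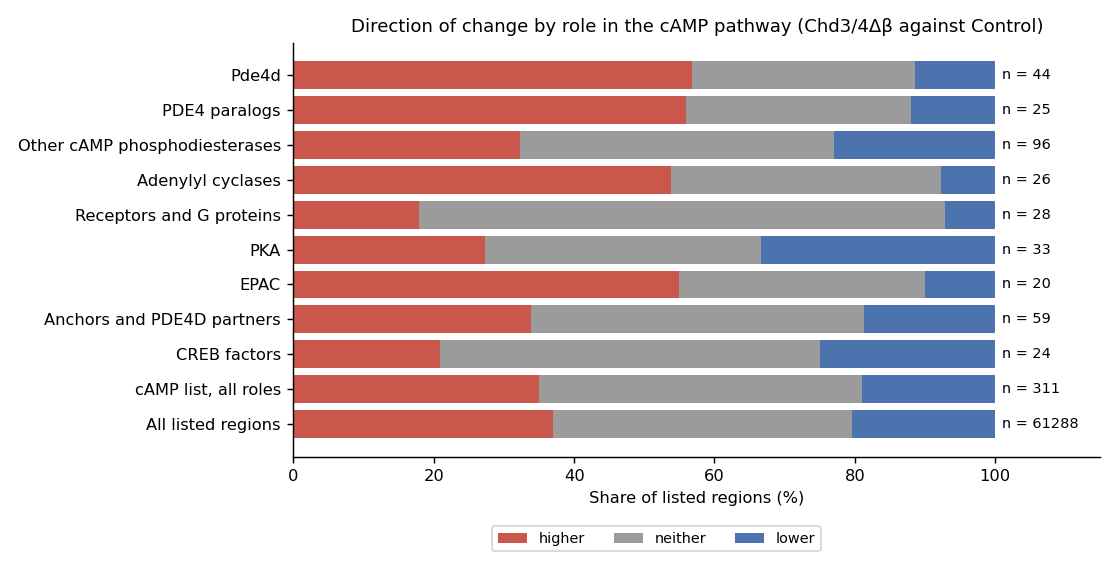
Share of listed regions (%, horizontal) that were higher, neither or lower in Chd3/4Δβ against Control for Pde4d, for each role in the cAMP list and for all listed regions, with the number of regions at the right. PDE4 paralogs (14 of 25), adenylyl cyclases (14 of 26) and EPAC genes (11 of 20) have shares of higher regions close to that of Pde4d (25 of 44), above the 37% of all listed regions. All these shares include regions under 1 CPM in Control, which could be listed almost only as gains. Shares of the roles without such regions were not computed.

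The largest gain and loss of each role were as follows. In each gain named here and in the next paragraph, no Control library exceeded 1 CPM. The listing minimum therefore fixed the direction and separation of these gains. It likewise fixed the direction of the losses of Pde1c, Prkar2a, Akap12 and Crtc3, where no Chd3/4Δβ library exceeded 1 CPM. Among the other phosphodiesterases, the promoter of Pde2a, an enzyme stimulated by cGMP, had 12.6 ± 3.43 CPM in Chd3/4Δβ and 0.658 ± 0.243 CPM in Control (4.25 ± 0.26; SD, n = 3 and 4), and an intronic region of Pde1c, activated by calmodulin, had 0.188 ± 0.0338 CPM in Chd3/4Δβ and 1.27 ± 0.178 CPM in Control (-2.80 ± 0.37). Among the cyclases, a region of Adcy8, which calcium stimulates, had 1.25 ± 0.231 CPM in Chd3/4Δβ and 0.207 ± 0.152 CPM in Control (2.74 ± 0.42), and one of Adcy9 had 1.39 ± 0.492 CPM in Chd3/4Δβ and 2.90 ± 0.436 CPM in Control (-1.07 ± 0.29). Among receptors and G proteins, a region near Gnal, the G protein subunit of olfactory neurons, had 4.86 ± 0.350 CPM in Chd3/4Δβ and 0.135 ± 0.0277 CPM in Control (5.16 ± 0.34). A region of Glp1r, the GLP-1 receptor, was lower in every Chd3/4Δβ library, with 1.35 ± 0.660 CPM in Chd3/4Δβ and 3.96 ± 0.731 CPM in Control (-1.48 ± 0.29).

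In the PKA group, a region near Pkia, a PKA inhibitor, had 1.88 ± 0.857 CPM in Chd3/4Δβ and 0.0988 ± 0.0627 CPM in Control (3.90 ± 0.46), and one of Prkar2a, a regulatory subunit, had 0.603 ± 0.0630 CPM in Chd3/4Δβ and 2.38 ± 0.983 CPM in Control (-1.97 ± 0.36). Rapgef4 held both extremes of the EPAC genes, at 2.65 ± 0.37 and -1.82 ± 0.31 on the log2 scale, in separate introns. Among the anchors, which hold PKA and phosphodiesterases in place, a region near Akap9 had 5.41 ± 0.773 CPM in Chd3/4Δβ and 0.263 ± 0.135 CPM in Control (4.23 ± 0.33), and one of Akap12 had 0.669 ± 0.208 CPM in Chd3/4Δβ and 3.79 ± 1.46 CPM in Control (-2.44 ± 0.33). Among CREB factors, which act on transcription after cAMP, a region near Crem had 5.09 ± 0.576 CPM in Chd3/4Δβ and 0.451 ± 0.181 CPM in Control (3.42 ± 0.30), and one of Crtc3 had 0.237 ± 0.0403 CPM in Chd3/4Δβ and 1.38 ± 0.188 CPM in Control (-2.49 ± 0.35).

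Gains and losses within a gene were compared with those of the 45 genes that had 20 or more listed regions. The medians over these genes were 30% of regions higher and 17.2% lower, against 56.8% and 11.4% in Pde4d, and 5 genes had a larger share of higher regions. Such shares include regions under 1 CPM in Control, and for the other genes shares without them were not computed. By the distance between the pairs of shares, the genes most like Pde4d were Ankrd44 (57.1% higher and 14.3% lower of 21 regions), Kirrel3os and Pde4b (each 60% and 15% of 20), Bmper (50% and 9.09% of 22) and Rbfox1 (59.5% and 18.9% of 37). Rbfox1, which encodes a splicing factor of neurons and muscle, is also a very long gene, of 1528 kb. The others are far shorter: Ankrd44 284 kb, Kirrel3os 89.5 kb, Pde4b 520 kb and Bmper 262 kb.

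**Figure D5:**
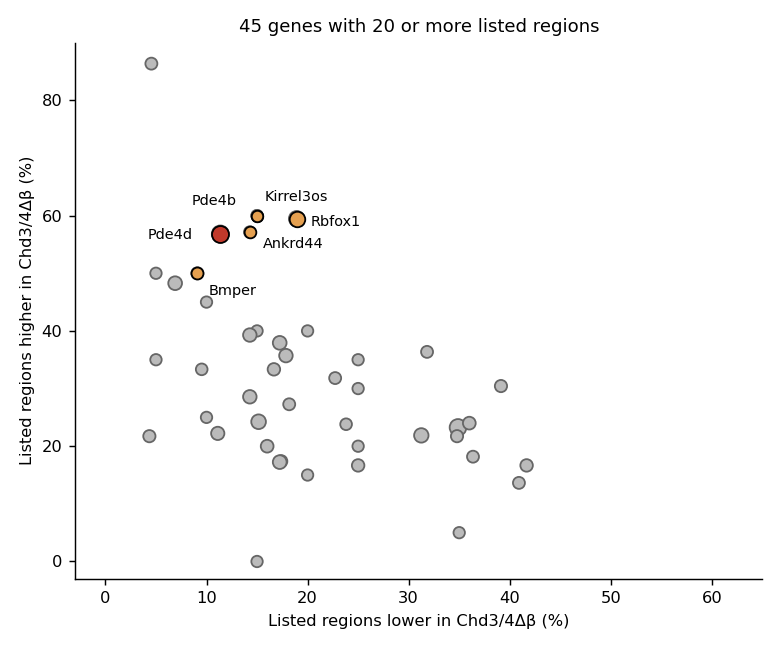
Share of listed regions lower (horizontal, %) and higher (vertical, %) in Chd3/4Δβ for the 45 genes with 20 or more listed regions; the area of a point grows with the number of regions, Pde4d is red and its 5 nearest genes are orange. Pde4d lies at 56.8% higher and 11.4% lower, and Pde4b and Kirrel3os share a point.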

How the data were processed

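ATAC-seq was analysed for 3 Chd3/4Δβ and 4 Control libraries, grouped by title. The authors deposited whole-number read counts per region and the CPM made from them. Aligner, peak caller and Tn5 shift are not given in the sources used here. Deposited p-value and FDR columns served only to find that 61288 of 109675 tested regions, those with an FDR under 0.05, are listed. Regions not listed are not analysed here, and the authors' fold changes were not used.

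Counts were fitted by the robust quasi-likelihood test of edgeR (4.0.16; R 4.3.3) with library sizes implied by the CPM, and p-values were adjusted by Benjamini-Hochberg over 109675 regions. Calls needed an adjusted p under 0.05 and a log2 fold change of 1 or more in size. SE is the fold change over the square root of F. Alternatives were TMM, RLE, cyclic loess (limma 3.58.1), DESeq2 1.42.0, CPM above 1 in 5 libraries, a replicate block, a depth term (libraries over 30 M), no fold threshold, members by position, and each library left out.

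The members, gene lists and rules were chosen with earlier results of these data known. Given in full are the 6 largest gains and losses, the 2 most open regions in each genotype, promoters and exons. Also given are the region nearest by position to each start assigned to a member, and 2 on each side of each threshold. Regions at 901, 1046, 1055, 1187 and 1411 kb and the neighbours were named after their values were seen.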

Additional observations from a re-analysis of the deposited data

Results flagged for a closer look

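In the higher region at 901 kb (chr13:109555396-109555807), the Chd3/4Δβ libraries had 3.02, 1.46 and 2.08 CPM (log2 fold change 1.83, but 0.78 and not called by cyclic loess). Among the Control libraries, all lower, replicate 4 had 0.825 CPM and the other 3 had 0.488 to 0.526 CPM, so that its gap to the nearest took 0.888 of the range of the group. This was 1 of 44 such groups examined, and about 1 in 20 is expected to be marked by chance.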

How the results depend on the processing

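The counts of 25 higher and 5 lower Pde4d regions stayed between 23 and 26 and between 4 and 7 under TMM, DESeq2, the replicate block and the depth term, and RLE gave 21 and 7. Leaving out each library gave 24 to 26 higher and 4 to 6 lower. Cyclic loess gave 15 higher Pde4d regions, 14012 higher of all listed regions and 72 higher of the cAMP list. It turned the region at 1004 kb to -0.46 and that at 1046 kb to -0.05. RLE gave 19441 lower over all listed regions and 97 in the cAMP list, against 12512 and 59. These scalings centre on listed regions and shifted the median log2 fold change by -0.18 (cyclic loess), -0.21 (TMM) and -0.31 (RLE); beyond this the cause was not tested. The filter of CPM above 1 in 5 libraries kept 23 members and gave 8 higher and 2 lower, with 9959 and 8241 over all listed regions and 54 and 38 in the cAMP list, since fewer regions were fitted. Without the fold threshold, 8 Pde4d regions, 27489 of all listed regions and 148 of the cAMP list were lower. By position, 3 were lower. Replicate numbers did not pair the samples (same-number correlations of 0.07, -0.03 and -0.02), and the block gave 23 and 5 Pde4d calls. Over all 14 settings that refitted the counts, 13 of the 25 gains and 3 of the 5 losses kept their call in each setting that could fit them. Members with under 10 reads in Control libraries limit the precision of the largest fold changes.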
